A study of Mus musculus with 14 samples.

Results

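Cysteine starvation was compared directly with full amino acid starvation in mouse embryonic fibroblasts (MEF cells), the connective-tissue cells grown from mouse embryos. The comparison used 4 of the 14 libraries of the series, chosen by their labels: Cys replicates 1 and 2, labelled cysteine starvation, and AA replicates 1 and 2, labelled full amino acid starvation. All cells of these groups carry the genotype label WT, and the labels give no duration of starvation, medium or passage. A pair of untreated libraries (NT, labelled no treatment, genotype WT) is used as a reference level only. Each library is a table of whole numbers, taken here as read counts, for the same 1399 transcripts. Of these, 1385 could be given a gene symbol, and every one of the 1399 entered the comparison. The labels do not say whether replicates are separate cultures, so a p-value here sets a difference against the variation among these particular libraries, part or all of which could be technical.

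Cells sense a lack of amino acids in more than one way. Uncharged tRNAs activate the kinase GCN2, which raises translation of the transcription factor ATF4 and, through it, genes for amino acid transporters, tRNA synthetases and serine and proline synthesis. A lack of amino acids at the lysosome also turns off mTORC1, the kinase complex that drives ribosome building and protein synthesis. Cysteine has a further role as the limiting building block of glutathione and as a source of sulfur for iron-sulfur clusters, so that its lack is tied to lipid peroxidation and ferroptosis, an iron-dependent form of cell death. The series' title places lysosomal cystine, ferroptosis and a nuclear response to cysteine at its centre. Setting the single against the complete starvation asks which transcripts differ between a lack of cysteine and a lack of all amino acids.

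The listed counts summed to 51224 and 46925 in the Cys libraries, to 30784 and 44946 in the AA libraries, and to 33990 and 25697 in NT. The smallest value in any table is 1, so a transcript that was not counted in some library is outside these tables, and a fall to 0 cannot be seen. Of 12 fibroblast markers 6 were listed (Fn1, Col1a1, Col1a2, Col3a1, Vim and S100a4), and they held 3.45% and 2.73% of counts in Cys and 0.685% and 1.15% in AA. A lower share in AA was not particular to these markers: cytosolic ribosomal protein genes held 3.95% and 2.81% in Cys and 1.01% and 1.56% in AA. The list of splicing and RNA-binding genes went the other way, at 10.4% and 14.8% in Cys and 16.2% and 18.9% in AA. Most of these counts belonged to 1 member, Luc7l2, which is described below. Relative to total counts, 22 of the other 23 members were higher in Cys. The part of the makeup of the libraries, described below, in the marker shares was not tested. In bulk RNA, fewer cells of a type and less RNA per cell cannot be told apart. Of the markers of other cell types, none of 10 immune and none of 8 neural genes was listed. The only listed epithelial, skeletal muscle, pancreatic acinar and endothelial markers were Cdh1, Ttn, Ctrb1 and Flt1, each at 0.0780% of counts or less in every library of the comparison.

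The libraries of the 2 starvations differed first of all in makeup. A class of 341 transcripts, called here the NT-high class, was set apart by its level in NT relative to NT2, the second untreated group of the series, as a ratio above 2 times the median ratio, without use of the Cys or AA libraries. This class held 37.6% and 57.5% of all counts in Cys replicates 1 and 2 (47.6% ± 14.05, SD, n = 2). It held 82.8% and 78.7% in AA (80.8% ± 2.88, SD, n = 2), and 63.8% and 86.8% in NT. Both Cys libraries thus lay below both AA libraries. The class was chosen for its level in NT, so the NT shares are partly set by the choice and nothing is read from them. An exact two-sided permutation test of the share gave p = 0.333, the smallest value that 2 libraries against 2 allow.

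**Figure D1:**
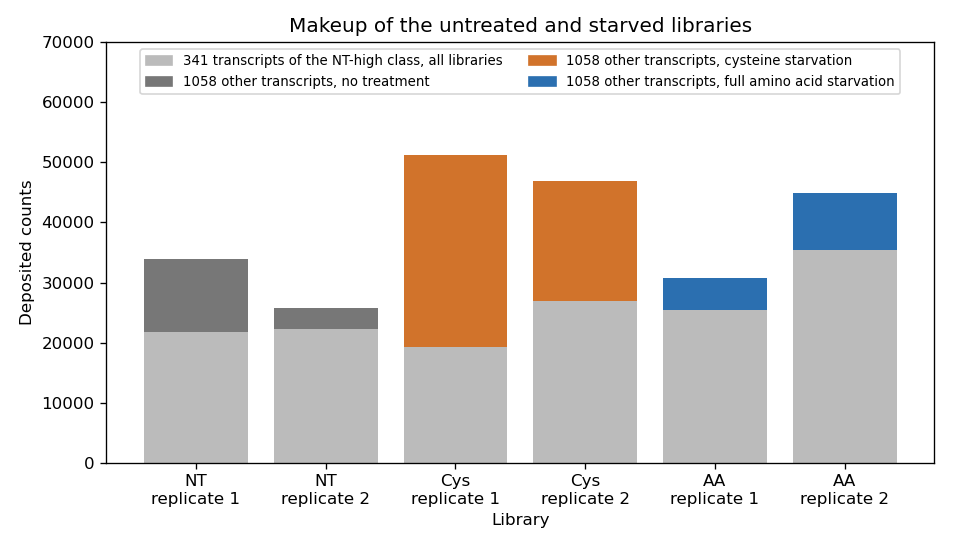
Deposited counts (y axis) in each NT, Cys and AA library (x axis), split into the 341 transcripts of the NT-high class (light grey) and the 1058 others (coloured by group). The light grey part runs from 19285 to 35383 counts over the 6 libraries, and the coloured part is 31939 and 19936 counts in Cys against 5298 and 9563 in AA.

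In the counts as deposited, the class differed less between the starvations than the other transcripts did. It summed to 19285 and 26989 counts in Cys and to 25486 and 35383 in AA, a ratio of 0.760. The other 1058 transcripts summed to 31939 and 19936 counts in Cys and to 5298 and 9563 in AA, a ratio of 3.49. The median count of a transcript outside the class was 17 and 10 in the Cys libraries and 3 and 6 in AA, so the AA values below rest on few reads. Of the 1058, 117 had 3 counts or fewer over both AA libraries, against 4 over both Cys libraries.

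Which transcripts then appear higher or lower depends on what is held level. With the TMM scaling of edgeR, which takes most transcripts as unchanged, edgeR's quasi-likelihood test called 10 of 1399 transcripts (0.715%) higher and 174 (12.4%) lower with cysteine starvation than with full amino acid starvation. Levels on this scale are given as CPM, the counts of a transcript relative to the scaled total of its library. With total counts alone the split was 227 higher and 9 lower, and the median log2 fold change (Cys over AA) of all transcripts moved from 0.12 to 1.09. DESeq2 called 0 higher and 98 lower (17.6% of the 558 transcripts to which it gave an adjusted p, with 182 of all at an unadjusted p under 0.05), and limma called 11 (0.786%) and 135 (9.65%). Fitting NT as well, for a spread estimated over 6 libraries, left 1 higher (0.0715%) and 86 lower (6.15%), and fitting all 14 libraries gave 36 (2.57%) and 174 (12.4%). With factors taken from the transcripts outside the NT-high class, 1 (0.0715%) was called higher and 206 (14.7%) lower. Without Cys replicate 1, the test called 0 in either direction, with 172 at an unadjusted p under 0.05, against 337 with all 4 libraries. Without Cys replicate 2 it called 2 higher and 149 lower, without AA replicate 1 it called 2 and 59, and without AA replicate 2 it called 18 and 154. Scaled libraries did not overlap between groups for 402 transcripts higher in Cys (28.7%) and for 370 lower (26.4%).

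**Figure D2:**
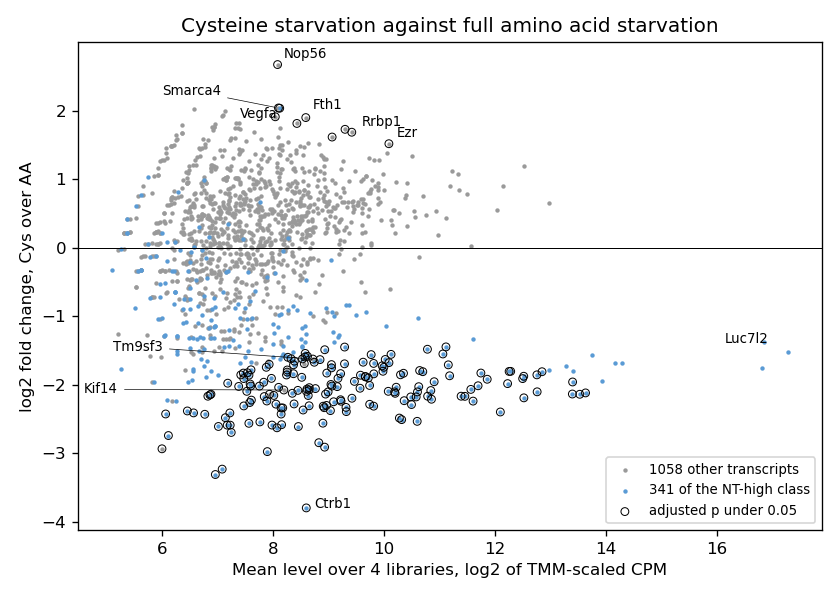
Log2 fold change of Cys over AA (y axis) against the mean level over the 4 libraries in TMM-scaled CPM on a log2 scale (x axis), 1 point a transcript, blue for the NT-high class and grey for the others, with circles at an adjusted p under 0.05. Most circles are blue points below 0, and 9 of the 10 circled points above 0 are grey.

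Of the 174 transcripts called lower, 166 belonged to the NT-high class, which is 48.7% of its 341 members. One member, Mroh6, was called higher (0.293%). The median log2 fold change in the class was -1.67, with 321 members below 0, beside 0.40 for the 1058 transcripts outside it. The class lay lower under the other scalings too: its median was -2.05 with factors taken from the transcripts outside it and -0.73 with total counts alone, when 261 members were below 0. Class members were similar to the others in transcript length, with medians of 4167.5 and 4393 bases, and in GC content, with medians of 50.8% and 51.1%.

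The class is led by 3 transcripts that hold a large part of all counts: Luc7l2, a splicing factor of the U1 particle, Pigl, an enzyme of the glycosylphosphatidylinositol anchor, and Pglyrp3, a peptidoglycan-binding protein. Luc7l2 had 4309 and 6362 counts in Cys and 4814 and 8227 in AA. Pigl had 3054 and 3880 counts in Cys and 4577 and 4702 in AA, and Pglyrp3 had 3135 and 5285 in Cys and 3293 and 6253 in AA. Together they took 26.8% ± 8.91 of counts in Cys and 41.9% ± 1.04 in AA (SD, n = 2). None of the 3 passed the test, at log2 fold changes of -1.52 ± 1.34 (SE, adjusted p = 0.533), -1.75 ± 1.24 (0.402) and -1.37 ± 1.23 (0.536). Their raw counts overlapped between the starvations for Luc7l2 and Pglyrp3, and only after scaling did both Cys libraries lie below both AA libraries.

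Among the class members called lower, the largest fold changes belonged to transcripts with few reads in Cys. Ctrb1, which encodes the pancreatic protease precursor chymotrypsinogen B, had 2 and 5 counts in Cys and 9 and 34 in AA, a log2 fold change of -3.80 ± 0.62 (SE, adjusted p = 1.79e-06). Its scaled level was 23.9 and 89.3 CPM in Cys against 423 and 1017 in AA, so the groups did not overlap. Slc17a9, the vesicular nucleotide transporter, had 2 and 5 counts in Cys and 9 and 14 in AA (-2.98 ± 0.67, adjusted p = 0.00109). Nme9 had 7 and 8 counts in Cys and 24 and 20 in AA (-2.91 ± 0.56, 0.000183), and the centriolar kinesin gene Kif24 had 4 and 10 in Cys and 23 and 17 in AA (-2.85 ± 0.57, 0.000315). Of the better counted members, Icam5, a neuronal adhesion molecule, had 30 and 22 counts in Cys and 66 and 42 in AA (-2.51 ± 0.52, 0.000434). Taco1, a translational activator of mitochondrial cytochrome c oxidase, had 26 and 34 in Cys and 66 and 73 in AA (-2.53 ± 0.53, 0.000434). Both genes were lower in each Cys library than in each AA library before any scaling.

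The 4 listed markers of other cell types were all in the class and all called lower, beside 48.7% of the class and 12.4% of all transcripts. Besides Ctrb1, these were Cdh1, the epithelial cadherin, with 4 and 1 counts in Cys and 9 and 4 in AA (-2.70 ± 0.73, adjusted p = 0.00433), and Ttn, the giant muscle protein titin, with 14 and 14 in Cys and 24 and 19 in AA (-1.997 ± 0.528, 0.00373). Flt1, a receptor of vascular endothelial growth factor, had 1 and 3 counts in Cys and 1 and 8 in AA (-2.38 ± 0.75, 0.0223). With 13 counts for Cdh1 and 9 for Flt1 over both AA libraries, these are differences between handfuls of reads. The scaled Flt1 libraries overlapped between the starvations. Of the alternatives that could be fitted, Ctrb1 passed in 12 of 13, Ttn in 10 of 13, Cdh1 in 8 of 12 and Flt1 in 6 of 12. The part of other cells in the class was not tested.

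Some class members called lower are on the lists of chromatin, matrix or sterol genes, beside 12.4% of all transcripts: 3 of 21 chromatin genes, 1 of 10 fibrillar collagen genes, 1 of 12 other matrix genes and 1 of 6 sterol and fatty acid synthesis genes. Smarca5, the ATPase of the ISWI remodelling complexes, had 97 and 104 counts in Cys and 134 and 148 in AA (-1.83 ± 0.57, adjusted p = 0.0168). The polycomb genes Phc3 and Bcor had log2 fold changes of -1.87 ± 0.54 (0.00813) and -1.86 ± 0.50 (0.00469). P4ha1, the catalytic subunit of collagen prolyl hydroxylase, had 23 and 23 counts in Cys and 38 and 26 in AA (-1.88 ± 0.51, 0.00433), and the matrix protein gene Postn had 5 and 3 in Cys and 7 and 9 in AA (-2.31 ± 0.66, 0.00762). Fdft1, squalene synthase of the sterol pathway, was lower at -1.60 ± 0.58 (0.0479). No member of these lists outside the class was called lower in this fit of all transcripts. The calls depend on the setting: of the alternatives that could be fitted, Bcor passed in 10 of 14, Phc3 and P4ha1 in 9 of 14, Smarca5 in 8 of 14, Postn in 7 of 12 and Fdft1 in 5 of 13, and none of the 6 passed without Cys replicate 1 or with total counts alone.

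The exception in the class was Mroh6, a HEAT-repeat gene, with 26 and 34 counts in Cys and 1 and 5 in AA. Its log2 fold change was 2.03 ± 0.66 (SE, adjusted p = 0.0226), and its counts in NT were 16 and 8. It was the only class member called higher by the 4-library test.

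Outside the class, the test over all transcripts called 9 of 1058 (0.851%) higher and 8 (0.756%) lower. To see differences among these transcripts without the shift in makeup, they were also scaled and tested on their own, which centres their median log2 fold change at 0.00. On this scale 1 (0.0945%) was called higher, Nop56, and 8 (0.756%) lower, with 110 at an unadjusted p under 0.05. The libraries did not overlap for 213 higher (20.1%) and 222 lower (21.0%), and 50.3% of transcripts lay above 0. With total counts alone 999 of the 1058 lay above 0, so a place above or below 0 on this scale is relative to the set itself. Without Cys replicate 1, Cys replicate 2 or AA replicate 1, 0 were called in either direction, with 75, 87 and 57 at an unadjusted p under 0.05, and without AA replicate 2, 1 was called higher and 15 lower. With the class drawn more widely, at 1.5 times the median ratio, 967 transcripts remained outside it and edgeR called 0, with 86 at an unadjusted p under 0.05. Unless another scale is named, list medians and counts above 0 given below are on the scale of the 1058 transcripts. Log2 fold changes of single genes are from the fit of all transcripts, about which the list medians are shifted.

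Nop56 encodes a core protein of the box C/D small nucleolar ribonucleoprotein, which guides methylation of ribosomal RNA. It had 42 and 25 counts in Cys, 1 and 3 in AA, and 10 and 1 in NT. The scaled level was 502 and 447 CPM in Cys and 47.0 and 89.8 CPM in AA, with every Cys value above every AA value. The log2 fold change was 2.67 ± 0.72 (SE, adjusted p = 0.00410) among all transcripts and 2.29 ± 0.65 (0.0494) among those outside the class. As the AA value rests on 4 reads, the scaled ratio of 6.56 has a counting interval (exact, 95%) from 2.45 to 24.8. Nop56 passed in 11 of 14 alternatives to the 4-library fit. It did not pass with DESeq2, without Cys replicate 1 or without AA replicate 1. Further repeats on the transcripts outside the class are not in this count. Among these, Nop56 passed with all 14 libraries, but not with the class drawn at 1.5 times the median ratio. Nor did it pass outside the class without Cys replicate 1, Cys replicate 2 or AA replicate 1.

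Nop56 was the only member of the nucleolar and ribosome assembly list to pass, of 9 measured. Ncl, the abundant nucleolar protein nucleolin, had 149 and 73 counts in Cys and 11 and 22 in AA (log2 fold change 1.38 ± 0.52, adjusted p = 0.0574). Npm1, the nucleolar chaperone nucleophosmin, had 52 and 24 in Cys and 6 and 5 in AA (1.36 ± 0.58, 0.112). On the scale of the 1058 transcripts outside the class, 6 of the 8 list members there lay above 0, with a median of 0.64, and the median stayed between 0.17 and 0.96 when each library was left out in turn. Nop58, the partner of Nop56 in the same particle, did not share its value, with 14 and 2 counts in Cys and 2 and 6 in AA (-0.37, or 0.62 with total counts alone). The 49 cytosolic ribosomal protein genes, the product side of this pathway, had a median of 0.02, with 27 above 0 and none called; many of them have processed copies in the genome, which makes their single values uncertain.

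The other 8 genes called higher outside the class did not pass once these transcripts were scaled on their own, where their adjusted p lay between 0.0687 and 0.221. They include genes of iron storage, angiogenic signalling, chromatin, protein folding and secretion and the cortex of the cell. For each of the 7 described below, both scaled Cys libraries lay above both AA libraries.

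Fth1, the heavy chain of the iron store ferritin, had 59 and 29 counts in Cys and 3 and 6 in AA. Scaled levels were 706 and 518 CPM against 141 and 180 CPM, and the log2 fold change was 1.90 ± 0.60 (SE, adjusted p = 0.0187; 0.112 outside the class). Fth1 has processed copies in the genome, and the counting could have split reads between them. Gpx4, the peroxidase that removes lipid peroxides, had 9 and 4 counts in Cys and 1 and 1 in AA (1.28, adjusted p = 0.419), and Ncoa4, the receptor that delivers ferritin to the lysosome, had 13 and 8 in Cys and 3 and 3 in AA (0.44, 0.762). These 3 were the only ones measured of 15 listed iron handling and ferroptosis genes. Of 4 measured glutathione, thioredoxin and NRF2 target genes none passed and 1 lay above 0 outside the class (median -0.50, or 0.90 with total counts alone). Among them, Abcc1, an exporter of glutathione conjugates, had 10 and 8 counts in Cys and 4 and 11 in AA (-1.04, 0.302). Sqstm1, the autophagy receptor p62, had 57 and 15 in Cys and 7 and 15 in AA, and its log2 fold change was 0.29 among all transcripts but -0.09 outside the class.

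Genes that answer to ATF4 gave few values and 1 call. Vegfa, the angiogenic growth factor, had 51 and 25 counts in Cys and 5 and 3 in AA (1.81 ± 0.62, adjusted p = 0.0309; 0.174 outside the class), with 610 and 447 CPM against 235 and 89.8 CPM. Atf4 itself had 71 and 29 counts in Cys and 4 and 13 in AA (1.19, 0.148). Of 11 listed amino acid transporters 4 were measured and none passed: Slc3a2, the heavy chain shared by the cystine and leucine carriers, had 42 and 18 counts in Cys and 1 and 8 in AA (1.37, 0.134), while Slc38a2, the neutral amino acid carrier SNAT2, had 40 and 14 in Cys and 13 and 16 in AA (-0.53, 0.586). Slc38a2 was the only transporter measured below 0, and with total counts alone its value was 0.48.

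The enzymes that make serine, one-carbon units, proline and glutamate had a median of 0.87 outside the class with 4 of 5 above 0, and no member passed. The median ran from 0.39 to 1.01, with 3 to 4 above 0, when each library was left out. Shmt2, mitochondrial serine hydroxymethyltransferase, had 37 and 25 counts in Cys and 2 and 8 in AA (1.30, adjusted p = 0.148), and Mthfd2, the next enzyme of the mitochondrial folate pathway, had 27 and 21 in Cys and 1 and 7 in AA (1.27, 0.208). Phgdh, the entry to serine synthesis, had 37 and 26 in Cys and 6 and 12 in AA (0.47, 0.655). Aldh18a1, the entry to proline synthesis, had 38 and 20 in Cys and 10 and 20 in AA (-0.40, 0.689), or -0.79 outside the class and 0.59 with total counts alone. The aminoacyl-tRNA synthetases, which charge tRNAs, were spread around 0, with 4 of 7 above it and a median of 0.05. In the fit of all transcripts, where the list median was 0.33, Kars had 19 and 15 counts in Cys and 2 and 3 in AA (1.40, 0.216). Lars had 46 and 13 in Cys and 5 and 7 in AA (0.86, 0.378). The pathways downstream of ATF4 thus had members on either side of 0. Their 1 called gene was Vegfa, beside 0.715% of all transcripts called higher. Vegfa passed in 6 of 15 alternatives, and not outside the class.

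**Figure D3:**
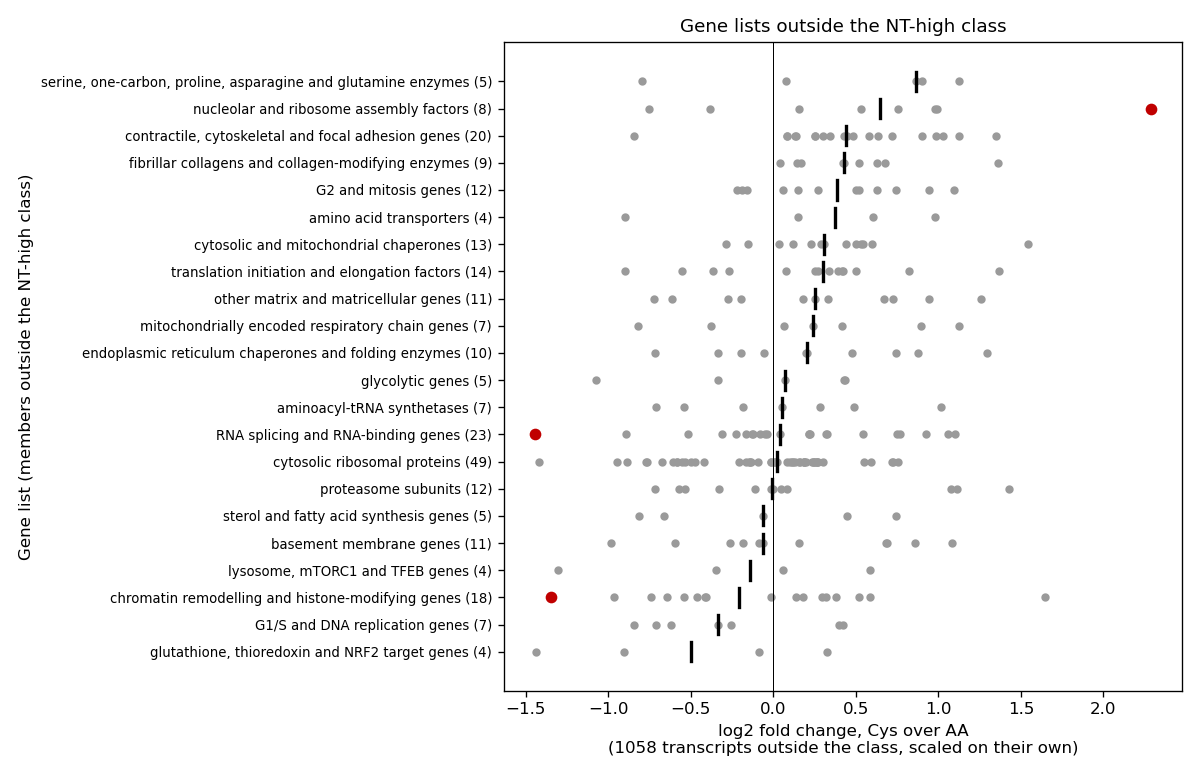
Log2 fold change of Cys over AA (x axis) of the members outside the NT-high class of each gene list with at least 4 such members (y axis, number in brackets), on the scale of the 1058 transcripts outside the class. Points are genes, red where the adjusted p was under 0.05 (Nop56 and Sf3b3 among them), and black bars are list medians, which run from -0.50 to 0.87.

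On the chaperone and endoplasmic reticulum lists, Cct4 and Rrbp1 were called higher in the fit of all transcripts and none passed outside the class. They were 1 of 13 and 1 of 10 measured members, beside 0.715% of all transcripts. Cct4 passed in 4 of 14 alternatives and Rrbp1 in 5 of 15. Cct4, a subunit of the chaperonin that folds actin and tubulin, had 48 and 14 counts in Cys and 3 and 3 in AA (1.91 ± 0.67, adjusted p = 0.0364; 0.221 outside the class). The other 4 measured subunits had values of 0.09 to 0.83 and did not pass. The heat shock genes Hspa8, with 198 and 69 counts in Cys and 15 and 38 in AA (0.95, 0.234), and Hsp90ab1, with 279 and 152 in Cys and 32 and 58 in AA (0.90, 0.304), were among 11 of 13 cytosolic and mitochondrial chaperones above 0 outside the class (median 0.30; 8 to 12 above 0 and 0.10 to 0.85 with a library left out). Rrbp1, a ribosome receptor of the rough endoplasmic reticulum, had 92 and 56 counts in Cys and 6 and 12 in AA (1.68 ± 0.54, 0.0211; 0.0687 outside the class). Hspa5, the main chaperone of the endoplasmic reticulum (BiP), had 113 and 78 in Cys and 8 and 24 in AA (1.28 ± 0.52, 0.0836). The 10 members of the endoplasmic reticulum list had 6 above 0 and a median of 0.20 (5 to 7 above 0 and 0.0091 to 0.55 with a library left out), and no other member was called.

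Ezr, which links the actin cortex to the membrane as ezrin, was the best counted of the genes called higher. It had 164 and 72 counts in Cys, 9 and 23 in AA and 51 and 8 in NT (1.52 ± 0.52, adjusted p = 0.0325; 0.0687 outside the class). Its scaled levels of 1962 and 1286 CPM in Cys did not overlap with 423 and 688 CPM in AA. Rnf213, a large ubiquitin ligase linked to vessel disease in humans, had 86 and 51 counts in Cys and 6 and 10 in AA (1.73 ± 0.55, 0.0196; 0.0687 outside the class).

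Contractile, cytoskeletal and focal adhesion genes had no member that passed. Of 20 measured members, all outside the class, 19 lay above 0 on the scale of the 1058 transcripts, where 50.3% of all did, with a median of 0.44. Libraries did not overlap for 12 of the 20, against 20.1% of all. Left out in turn, the libraries gave 17 to 18 members above 0 and medians of 0.33 to 0.71. Tagln, the smooth muscle protein transgelin, had 31 and 28 counts in Cys and 2 and 5 in AA (1.74 ± 0.65, adjusted p = 0.0524), and the actin crosslinker Actn1 had 61 and 35 in Cys and 5 and 8 in AA (1.51 ± 0.57, 0.0567). Acta2, smooth muscle actin, had 33 and 34 in Cys and 4 and 6 in AA (1.42, 0.102), and Actb, cytoplasmic actin, had 228 and 214 in Cys and 22 and 65 in AA (1.11, 0.180). The exception was Tpm2, a tropomyosin, with 7 and 4 counts in Cys and 1 and 5 in AA (-0.45, or 0.51 with total counts alone). Actin genes share near-identical sequence, so their values are uncertain one by one.

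Matrix genes gave no calls outside the class in the lists of fibrillar collagens and basement membrane. All 9 fibrillar collagen and collagen-modifying genes outside the class lay above 0 (median 0.43), none of them called, from Pcolce, the enhancer of procollagen cleavage, with 20 and 15 counts in Cys and 2 and 2 in AA (1.74, adjusted p = 0.122), to Col5a2, with 219 and 142 in Cys and 34 and 73 in AA (0.44, 0.678). Left out in turn, the libraries gave 7 to 9 above 0 and medians of 0.14 to 0.84. Col1a1, the chain of type I collagen with the most counts here, had 396 and 396 in Cys and 43 and 142 in AA (0.90, 0.357). Basement membrane genes had 5 of 11 above 0 and a median of -0.07, which was 0.35 in the fit of all transcripts and ran from -0.09 to 0.59, with 4 to 7 above 0, when a library was left out. The difference between these lists was not tested. The paired chains of type IV collagen, whose genes lie head to head, differed in sign: Col4a1 had 110 and 80 counts in Cys and 12 and 24 in AA (1.08, 0.164), and Col4a2 had 60 and 58 in Cys and 36 and 33 in AA (-0.60, 0.489; 0.35 with total counts alone). The difference between them was not tested. The 6 fibroblast markers all lay above 0 (median 0.34; 4 to 6 with a library left out). All of them but S100a4 are also on the matrix or contractile lists, so the markers and those lists are not separate observations. The part of the markers' share of counts, given above, in these values was not tested.

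Outside the class, the 8 transcripts called lower among all transcripts were Kif14, Tln2, Rbm33, Tm9sf3, Ccdc186, Per3, Gli2 and Rgl1. The 8 called lower when scaled on their own kept the first 5 and included Sf3b3 and Brwd1. Summed over both libraries, the 5 in both sets had deposited counts of 15 in Cys and 25 in AA (Kif14), 12 and 20 (Tln2), 24 and 29 (Rbm33), 28 and 35 (Tm9sf3) and 19 and 24 (Ccdc186), beside a sum over all transcripts outside the class that was 3.49 times as high in Cys as in AA. Several of them lay just under the limit of 2 for the class, with NT to NT2 ratios of 1.62, 1.63, 1.94 and 1.99 times the median for Rbm33, Tm9sf3, Kif14 and Tln2, and 1.08 for Ccdc186. Sf3b3 stood at 1.66 and Brwd1 at 1.04. The part of this nearness in their calls was not tested.

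Tm9sf3, a transmembrane protein of the Golgi and endosomes, had 14 and 14 counts in Cys and 13 and 22 in AA, at 167 and 250 CPM against 611 and 658 CPM (-1.63 ± 0.53, adjusted p = 0.0228; -2.03 ± 0.43 and 0.00335 outside the class). Kif14, a kinesin needed for cytokinesis, had 8 and 7 counts in Cys and 12 and 13 in AA (-2.08 ± 0.61, 0.00958). Tln2, the adhesion protein talin 2, had 9 and 3 in Cys and 13 and 7 in AA (-2.14 ± 0.63, 0.0102). Its paralogue Tln1, which is the talin with more counts here, lay on the other side at 94 and 66 counts in Cys and 17 and 23 in AA (0.64, 0.468). Rbm33, an RNA-binding protein, had 15 and 9 counts in Cys and 18 and 11 in AA (-1.69 ± 0.55, 0.0224), and Ccdc186, a coiled-coil protein known for dense-core vesicle formation in worms and rat cells, had 15 and 4 in Cys and 15 and 9 in AA (-1.79 ± 0.60, 0.0266). For each of these 5 genes both scaled Cys libraries lay below both AA libraries.

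Low counts limit the other 3. Per3, a circadian repressor, had 1 and 1 counts in Cys and 1 and 6 in AA (adjusted p = 0.0217). With 2 reads in Cys its scaled ratio of Cys to AA was 0.112, with a counting interval (exact, 95%) from 0.0113 to 0.588. Gli2, a transcription factor of hedgehog signalling, had 2 and 3 counts in Cys and 7 and 2 in AA (-2.15 ± 0.74, 0.0408), and Rgl1, a Ral exchange factor, had 3 and 6 in Cys and 9 and 4 in AA (-1.86 ± 0.67, 0.0453). None of the 3 passed outside the class, at adjusted p of 0.0530, 0.0670 and 0.0580.

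Regulators of chromatin and splicing lay on either side. Smarca4, the BRG1 ATPase of SWI/SNF complexes, had 38 and 25 counts in Cys and 1 and 5 in AA, and was called higher at 2.04 ± 0.66 (SE, adjusted p = 0.0223; 0.166 outside the class). Crebbp, an acetyltransferase, had 28 and 20 counts in Cys and 12 and 25 in AA and missed the threshold (-1.34 and 0.0580 outside the class; 0.03 with total counts alone). Of 18 chromatin genes outside the class, 8 lay above 0, with a median of -0.21, or 1.15 with total counts alone. On this scale 1 of them, not named here, was called lower and 0 higher. Sf3b3, a component of the U2 particle of the spliceosome, had 25 and 18 counts in Cys and 15 and 20 in AA (-1.45 ± 0.40, 0.0494 outside the class), while Sf3b1, from the same particle, had 39 and 14 in Cys and 5 and 2 in AA (1.10, 0.536 outside the class). Brwd1, a gene with WD repeats and a bromodomain that is not on the chromatin list, had 25 and 18 counts in Cys and 17 and 18 in AA (-1.46 ± 0.40, 0.0494 outside the class).

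Sequences upstream of 4 of these genes are shown, as examples of both directions of the comparison; their RefSeq starts lie 18 (Nop56), 8 (Vegfa), 4 (Ezr) and 7 (Tm9sf3) bases from the start of the counted transcript. Each line gives 250 bases upstream of the RefSeq start (GRCm38.p6), 5′ to 3′ on the gene's strand, with motif letters in capitals. Nop56 is at chr2:130274162-130274411 (+), Vegfa at chr17:46032378-46032627 (-), Ezr at chr17:6782781-6783030 (-) and Tm9sf3 at chr19:41264005-41264254 (-).
Nop56: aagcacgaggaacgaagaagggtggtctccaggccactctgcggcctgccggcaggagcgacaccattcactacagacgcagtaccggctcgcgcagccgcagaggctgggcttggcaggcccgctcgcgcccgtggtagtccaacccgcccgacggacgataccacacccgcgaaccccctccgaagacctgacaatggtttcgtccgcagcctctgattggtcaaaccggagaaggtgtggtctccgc
Vegfa: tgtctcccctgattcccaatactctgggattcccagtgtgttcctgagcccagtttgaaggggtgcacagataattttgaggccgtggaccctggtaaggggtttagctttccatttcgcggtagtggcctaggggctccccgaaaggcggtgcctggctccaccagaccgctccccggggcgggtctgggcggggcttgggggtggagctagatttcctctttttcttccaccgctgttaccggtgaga
Ezr: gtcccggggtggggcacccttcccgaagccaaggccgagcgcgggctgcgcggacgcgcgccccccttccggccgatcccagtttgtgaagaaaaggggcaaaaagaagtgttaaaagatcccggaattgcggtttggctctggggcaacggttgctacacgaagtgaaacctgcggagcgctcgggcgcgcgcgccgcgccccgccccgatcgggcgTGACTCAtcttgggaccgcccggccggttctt
Tm9sf3: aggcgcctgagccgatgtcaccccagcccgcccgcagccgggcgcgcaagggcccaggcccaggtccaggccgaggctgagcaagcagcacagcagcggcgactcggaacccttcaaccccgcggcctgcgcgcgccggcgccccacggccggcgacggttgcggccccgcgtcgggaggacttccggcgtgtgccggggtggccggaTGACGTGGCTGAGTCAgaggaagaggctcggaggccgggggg

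The motifs searched on both strands were CACGTG, the E-box read by MYC and TFEB, TGATGNAA, the element read by ATF4 with its partners, TGACNNNGC, the antioxidant element read by NRF2, and TGANTCA, read by AP-1. TGANTCA begins 32 bases before the start of Ezr. In Tm9sf3, TGACNNNGC begins 42 and again 35 bases before the start and TGANTCA begins 33 bases before it, and the 3 overlap. Neither Nop56 nor Vegfa holds any of the 4 in this window. Of all 32851 promoters in the RefSeq table, 6.02% hold CACGTG, 3.45% TGATGNAA, 10.2% TGACNNNGC and 6.75% TGANTCA. Of the 7 genes called higher that had a promoter in the table, 1 held TGANTCA and none held the other 3. A match is a run of letters, not a binding site.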

How the data were processed

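RNA of 50 to 100 nucleotides from oligo(dT)-selected messenger RNA was tailed, ligated, copied and amplified, per the labels' protocols, with no molecular identifiers stated. Per the submitters' processing notes, the tools were STAR 2.7.10a, Bowtie 1.2.3, cutadapt 2.8 and bcl2fastq 2.20.0.422, in roles not stated, and the build was GRCm39. How reads were counted, with which annotation and strand setting, is not given in the sources used here. The authors deposited whole-number counts per transcript, not normalized. Symbols came from GENCODE M21 by transcript identifier, and no symbol had more than 1 transcript.

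edgeR 4.0.16 (R 4.3.3) fitted the 4 Cys and AA libraries after TMM scaling (2 residual degrees of freedom), with Benjamini-Hochberg adjustment over 1399 transcripts and a threshold of 0.05, two-sided. Adjusted p-values are from this test unless another is named, and "outside the class" marks the repeat over 1058 transcripts. Fits with 6 or 14 libraries, limma 3.58.1 on log2(CPM + 1) and DESeq2 1.42.0 were alternatives. Steps were tested on simulated data. Intervals cover counting error only.

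Members and lists were chosen with earlier results of these data known. The text names, per direction, the 12 largest called changes with a mean count of at least 10 and groups that do not overlap, filled up by smallest p, the same outside the class, up to 4 genes of each list by smallest p, all markers and the 3 highest transcripts. Per3, Gli2, Rgl1 and other list members were named after their values were seen. Some genes that meet the rule are not reported here.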

Additional observations from a re-analysis of the deposited data

How the results depend on the processing

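All counts here are transcripts called higher and lower with cysteine starvation. With NT added (6 libraries) edgeR called 1 and 86, and with all 14 libraries 36 and 174, of which 9 and 146 were shared with the 10 and 174 of the 4-library fit. Total counts alone gave 227 and 9, factors from outside the class 1 and 206, DESeq2 0 and 98, limma 11 and 135, DESeq2 size factors in edgeR 10 and 179, and a mean count of at least 20 gave 0 and 0 of 309 tested, with 117 at an unadjusted p under 0.05. Transcripts outside the class alone gave 1 and 8. The replicate block gave 1 and 97, and 1 and 5 outside the class. Deviations of same-numbered libraries correlated across 1399 transcripts at r = -0.06 for Cys and AA, 0.32 for Cys and NT and -0.23 for AA and NT. Such correlations cannot settle whether the replicate numbers pair the samples. Leaving out a library gave 0 to 18 higher and 0 to 154 lower, and outside the class 0 to 1 and 0 to 15. Outside the class, all 14 libraries gave 4 and 14, 6 libraries 1 and 11, and a class drawn at 1.5 times the median ratio 0 and 0, in fits added after seeing the data. With 1 library left out of a group, its partner is assumed to vary like the other group. The share of the class stayed between 37.6% and 57.5% in Cys and between 78.7% and 82.8% in AA with a library left out, and at 45.4% and 78.4% with the class drawn at 4 times the median. Summing by symbol changed nothing, as each symbol had 1 transcript. The cause of each change was not tested. Depth limits the AA values most, at a median of 3 and 6 counts outside the class. Named genes whose sign changed, none of them called in the 4-library fit, were with total counts alone Crebbp (0.026), Slc38a2 (0.48), Aldh18a1 (0.59), Tpm2 (0.51), Col4a2 (0.35) and Nop58 (0.62), and, for Sqstm1, scaling or testing outside the class (-0.11 and -0.088). With a library left out, log2 fold changes ran from -0.68 to 1.40 for S100a4, from -0.54 to 0.68 for Sqstm1, from -0.91 to 0.71 for Tpm2 and from -1.92 to 0.24 for Nop58.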

Other observations

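Translation initiation and elongation factors had 10 of 14 members above 0 on the scale of the transcripts outside the NT-high class, with a median of 0.30, and none passed. Eef1a1, elongation factor 1 alpha, had 341 and 184 counts in Cys and 43 and 75 in AA (log2 fold change 0.79). Eif3a, the largest subunit of initiation factor eIF3, had 134 and 44 in Cys and 11 and 25 in AA (0.90). Of the 7 mitochondrially encoded genes 5 lay above 0 (median 0.24), led by mt-Nd1, a subunit of complex I, with 40 and 20 counts in Cys and 4 and 4 in AA (adjusted p = 0.103 by edgeR's quasi-likelihood test).

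Genes of mitosis and of DNA replication were placed differently around 0, without a test of the difference. Of 12 genes of G2 and mitosis 9 lay above 0 outside the class (median 0.38), among them Top2a, the topoisomerase that untangles chromosomes, with 57 and 32 counts in Cys and 10 and 8 in AA (0.88). Of 7 genes of G1/S and replication 2 did (median -0.34). In the fit of all transcripts the list ran from -1.34 to 0.80. The highest value was that of Dnmt1, the maintenance DNA methyltransferase, with 37 and 22 counts in Cys and 6 and 7 in AA. Proteasome subunits had 5 of 12 above 0 and a median of -0.01, glycolytic genes 3 of 5 and 0.07, sterol and fatty acid synthesis genes 2 of 5 and -0.06, lysosome, mTORC1 and TFEB genes 2 of 4 and -0.14, other matrix genes 7 of 11 and 0.26, and splicing genes 12 of 23 and 0.04. With total counts alone every median named here was positive.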
